A study of Mus musculus with 22 samples.

Results

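The genes described here encode the nuclear subunits of the oxidative phosphorylation complexes, together with the complex I assembly factors of the Ndufaf family. Members were all genes of the array whose symbol starts with Ndufa, Ndufb, Ndufc, Ndufs, Ndufv, Uqcr or Atp5, is a Cox gene numbered 4 to 8, or is Sdha, Sdhb, Sdhc or Sdhd. The rule used no measured change. It found 90 of 18194 genes, and 82 of these reached the mean signal required for testing, among 10772 genes tested. They comprised 33 subunits of complex I, 8 complex I assembly factors, 4 subunits of complex II, 8 of complex III, 12 of complex IV and 17 of ATP synthase. The 8 members below that level were Ndufb4 and 7 complex IV genes, namely Cox4i2, Cox6a2, Cox6b2, Cox7a1, Cox7b2, Cox8b and Ndufa4l2.

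In oxidative phosphorylation, complexes I and II pass electrons from NADH and succinate to ubiquinone, complex III passes them on to cytochrome c, and complex IV, cytochrome c oxidase, hands them to oxygen. Complexes I, III and IV pump protons as they do so, and ATP synthase uses the proton gradient to make ATP. Most subunits are encoded in the nucleus, a few in mitochondrial DNA, and several complex IV subunits exist as isoforms used in different tissues. Neurons depend on this pathway for most of their ATP, whereas dividing granule neuron progenitors are known for a high rate of glycolysis.

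Expression was measured on 22 Affymetrix mouse arrays of cerebellar granule cells taken from pups at postnatal day 7, titled CGNs (cerebellar granule neurons) but given the cell type granule neuron progenitors, of strain C56Bl6/J as the labels spell it. The groups were cells cultured with Smo2 and controls without it (3 arrays each), Chd7 mutant cells and cells labelled wild type (4 each), and cells given 10 µM ICRF-193, an inhibitor of topoisomerase II, for 12 h and cells given DMSO (4 each). In the study's account the mutant is homozygous for a floxed Chd7 allele deleted by Atoh1-Cre. Its wild type is given as Chd7 f/f, written without Cre, so Cre and the deletion differ together. Atoh1-Cre is active in granule cell precursors and leaves Chd7 protein in the posterior lobe. The study enriched the cells on a percoll gradient and did not separate pups for culture by sex. Smo2 is not explained in the labels, and the study describes cultures with the Smoothened agonist SAG without using that name, and calls cells kept without it postmitotic. The labels call the arrays biological replicates but do not say whether animals or cultures were separate, so p-values measure the spread between arrays only.

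The label of the Chd7 mutant was checked first. The dimmer of 2 Chd7 probe sets read 8.99, 9.02, 9.89 and 9.98 (log2 signal) in mutant cells, against 11.33, 11.27, 11.66 and 11.72 in control cells, though its place relative to the floxed exons was not known. The brighter probe set, which stands for the gene elsewhere here, read 11.51, 11.37, 11.86 and 11.85 in mutant cells, against 11.74, 11.84, 11.99 and 12.01 in control cells, with overlap. Of 12 granule lineage markers, 9 were measured. With Smo2, 19 of 19 measured markers of proliferating progenitors were higher, with a median change of 3.22 on the log2 scale, 1 granule lineage marker was higher and 7 were lower. Also lower were 8 of 11 astrocyte and Bergmann glia markers (3 were higher), 6 of 6 microglia markers and 5 of 6 GABAergic interneuron markers (1 was higher), and the part of any of these in the members' changes was not tested. In these bulk samples fewer cells of a type and less RNA per cell cannot be told apart. Markers that moved in the other comparisons are given beside their results.

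With Smo2, 42.4% of complex I subunits, 62.5% of those of complex III and 62.5% of complex I assembly factors were called higher. For ATP synthase the share was 35.3%, near the 29.7% of all genes. Called lower in these groups were 6.06%, 0%, 12.5% and 11.8% in the same order. No complex IV subunit was called higher, although 6 were when each array was centred on its median. Of the 82 measured members, 31 rose (37.8%) and 11 fell (13.4%) in limma at an adjusted p under 0.05, against 29.7% of all tested genes called higher and 39% called lower. The median change of the members was 0.06 on the log2 scale, against -0.09 over all genes tested. All 3 Smo2 arrays lay above all 3 control arrays for 36 members and below them for 16. Over all genes these shares were 31.9% above and 41.6% below.

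**Figure D1:**
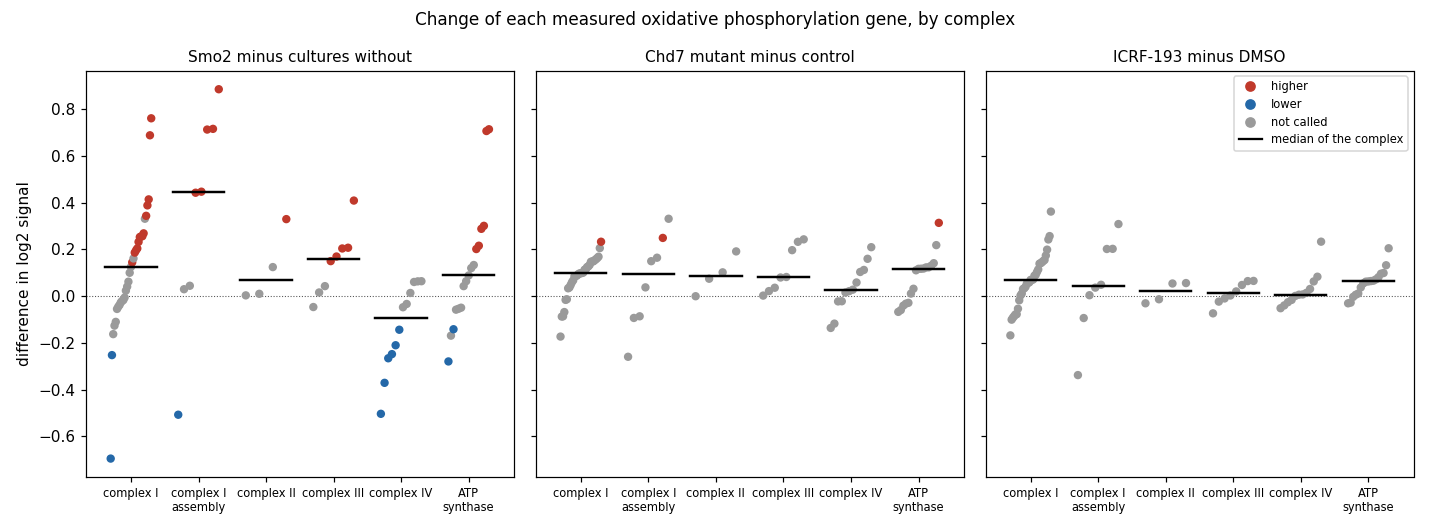
Difference in log2 signal of each of the 82 measured members (1 point per gene), by complex, for Smo2 against cultures without it (left), Chd7 mutant against control (middle) and ICRF-193 against DMSO (right). Red points were called higher, blue points lower and grey points neither (adjusted p under 0.05), and black bars are medians. With Smo2 the changes run from -0.70 to 0.89 and 6 points of complex IV are blue (1 when arrays were centred on their medians), whereas 3 points are red in the Chd7 panel and none is called in the ICRF-193 panel.

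These counts depended on how the arrays were put on 1 scale. After quantile normalization, the setting used throughout, the median over all genes was -0.09. When each array was centred on its median instead, that median was 0.05, and 64 members were called higher and 3 lower. With the values as deposited it was -0.13, with 40 members higher and 7 lower. All 31 rises were called under each of 4 scalings, as 28.1% of all genes were, but only the falls of Ndufv3, Ndufaf3 and Cox8c were, which is 3.66% of the members against 29.8% of all genes. When each of the 6 arrays was left out in turn, 24 of the 31 rises and 7 of the 11 falls were called every time.

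Complex I rose in part. Of its 33 measured subunits 14 were higher with Smo2 and 2 lower, with a median change of 0.13. Ndufb6, an accessory subunit of the membrane arm, changed most, with 12.42, 12.49 and 12.42 (log2 signal) in Smo2 cells, against 11.67, 11.75 and 11.63 in controls. This is a 1.70-fold rise (log2 difference 0.76 ± 0.06, SE, adjusted p = 6.34e-05) without overlap between the groups. Its second probe set gave 0.62.

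Among the nuclear core subunits of complex I, which carry its redox centres, the genes did not move alike. Ndufv1, which holds the flavin that accepts electrons from NADH, read 11.94, 11.94 and 11.86 with Smo2, against 11.63, 11.67 and 11.67 without (log2 difference 0.26, adjusted p = 0.00475). Its 3 bright probe sets were all called higher. Ndufv2 (0.20) and the iron-sulphur subunit Ndufs8 (0.69) rose as well. The 6 bright probe sets of Ndufs8 ranged from 0.20 to 0.69, with 5 called higher. Ndufs8 read 12.54, 12.47 and 12.52 with Smo2, against 11.82, 11.61 and 12.03 without, so its controls were the more scattered group. Ndufs1, the largest iron-sulphur subunit, differed by -0.02, with a 95% interval of -0.15 to 0.12.

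Ndufv3, an accessory subunit of the same NADH-binding module, went the other way. It read 11.54, 11.50 and 11.56 with Smo2, against 12.25, 12.18 and 12.26 without. This 1.62-fold fall (log2 difference -0.70, adjusted p = 6.49e-05) was the largest among the members and was called under all 4 scalings. Ndufa1, needed for assembly of the membrane arm, differed by -0.25 (adjusted p = 0.0057). That call was lost when arrays were centred on their medians.

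The assembly factors of complex I had the highest median of all groups, 0.45, with 5 of 8 higher and 1 lower. Ndufaf6 read 9.04, 9.05 and 9.01 with Smo2, against 7.97, 8.17 and 8.31 without, a 1.85-fold rise (log2 difference 0.89, adjusted p = 0.000263). Ndufaf2, which stands in for Ndufa12 late in assembly, read 9.87, 9.96 and 9.75 with Smo2, against 9.20, 9.06 and 9.18 without (0.71, adjusted p = 0.000292). Its partner subunit Ndufa12 rose by 0.41 on all 3 of its bright probe sets (0.41 to 0.45). Ndufaf8 (0.72), Ndufaf4 (0.45) and Ndufaf7 (0.44), a methyltransferase that modifies a core subunit, rose too, although the call of Ndufaf7 was lost without control replicate 3 and without any single Smo2 replicate. Ndufaf3, known to act with Ndufaf4, read 9.95, 9.97 and 9.94 with Smo2, against 10.60, 10.27 and 10.51 without, and fell by 0.51 (adjusted p = 0.00297). Partners known to bind each other thus stood on opposite sides.

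Complex III was higher in 5 of 8 members and lower in none, with a median of 0.16. Uqcrq, a small subunit, read 12.04, 11.87 and 12.04 with Smo2, against 11.58, 11.54 and 11.60 without (0.41, adjusted p = 0.00171). The Rieske iron-sulphur protein Uqcrfs1 (0.17, adjusted p = 0.0357) and the core protein Uqcrc1 (0.15, adjusted p = 0.0455) changed less. The call of Uqcrfs1 was lost whichever array was left out, and that of Uqcrc1 without any array but Smo2 replicate 2. Of the 4 subunits of complex II, only Sdha, the flavoprotein that oxidises succinate, was called, at 0.33 (adjusted p = 0.00122), with 12.16, 12.17 and 12.17 with Smo2, against 11.80, 11.88 and 11.82 without. Of its 3 bright probe sets 2 were called higher, and they ranged from -0.16 to 0.35. The iron-sulphur subunit Sdhb differed by 0.003 (95% interval -0.17 to 0.17), and the membrane anchors Sdhc and Sdhd by 0.01 and 0.12.

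Complex IV stood lowest. None of its 12 measured members was called higher and 6 were called lower, against 39% of all genes, and its median of -0.10 was close to that of all genes, -0.09. When each array was centred on its median the direction turned, with 6 called higher, 1 lower and a median of 0.18, and with the values as deposited 2 were higher, 4 were lower and the median was -0.00026. What held under each of the 4 scalings was the order, with complex IV the lowest of the 6 groups. Taken within each array, the mean of complex IV minus that of complex I deviated by -0.14 to -0.10 on the Smo2 arrays, against 0.11 to 0.15 on the control arrays, a difference of -0.25 after quantile normalization and of -0.25 as deposited. Against complex III the difference was -0.28 and -0.27.

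**Figure D2:**
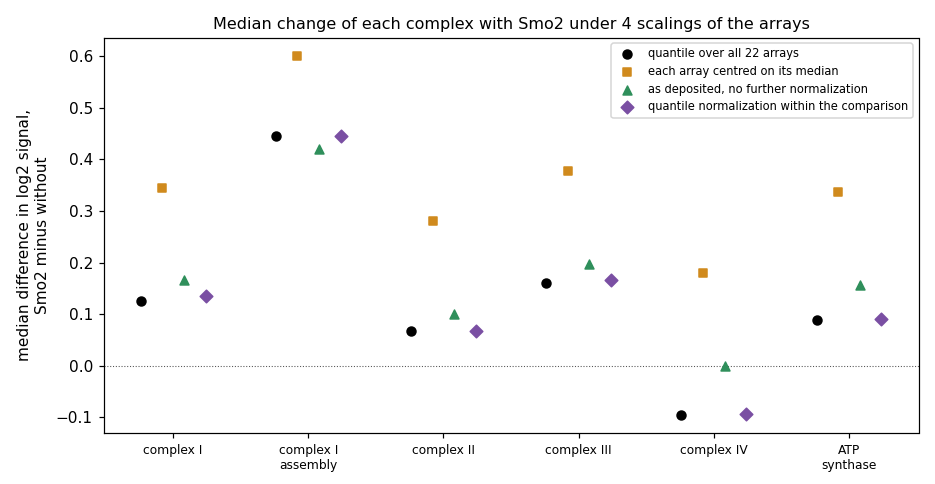
Median change with Smo2 of the members of each complex (vertical axis, difference in log2 signal, Smo2 minus cultures without) under 4 scalings of the arrays, 1 symbol per scaling. Complex IV lies below every other group under each scaling, at -0.10, 0.18, -0.00026 and -0.09, so its place in the order is kept while its sign is not.

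Cox4i1, the common isoform of its family, read 13.70, 13.67 and 13.69 with Smo2, against 13.98, 13.81 and 13.90 without (-0.21, adjusted p = 0.021). Cox6a1, the form found outside muscle, read 14.37, 14.24 and 14.27 with Smo2, against 14.54, 14.51 and 14.56 without (-0.25, adjusted p = 0.00821). Cox8a, the form found in most tissues, read 12.45, 12.49 and 12.60 with Smo2, against 12.82, 12.78 and 12.74 without (-0.27, adjusted p = 0.00777). In none of these did the groups overlap, yet none was called after median centring, where Cox4i1 had 0.09, Cox6a1 -0.0044 and Cox8a -0.0097. The call of Cox4i1 was also lost with the values as deposited and without control replicate 1 or 3 or Smo2 replicate 2 or 3, and that of Cox8a when its probe sets were averaged (adjusted p = 0.184). Cox8c read 7.83, 7.83 and 8.14 with Smo2, against 8.53, 8.41 and 8.36 without (-0.50, adjusted p = 0.0052) and was the 1 complex IV gene called lower under all 4 scalings. The call of Cox8c was lost, too, when its probe sets were averaged (-0.38, adjusted p = 0.0785). Cox7c read 8.38, 8.59 and 8.24 with Smo2, against 8.95, 8.78 and 8.60 without (-0.37, adjusted p = 0.0368), a wide scatter in both groups, and its call was lost without control replicate 1 or 2 or Smo2 replicate 1 or 3. Ndufa4, once counted with complex I and now placed in complex IV, differed by -0.14 (adjusted p = 0.0405), a call lost whichever array was left out. The others lay near 0, with Cox5a at 0.06, Cox6b1 at -0.05, Cox7a2 at 0.06 and the supercomplex factor Cox7a2l at 0.06.

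In ATP synthase 6 of 17 members were higher (35.3%, near the 29.7% of all genes) and 2 lower, with a median of 0.09. Calls in both directions were found among the genes of its c subunit, the ring in the membrane that turns as protons pass. Atp5g1, Atp5g2 and Atp5g3 encode the same mature protein behind different import sequences. Atp5g1 read 11.48, 11.59 and 11.53 with Smo2, against 10.85, 10.77 and 10.83 without, a 1.64-fold rise (log2 difference 0.71 ± 0.06, SE, adjusted p = 7.88e-05). Atp5g2 read 12.49, 12.46 and 12.51 with Smo2, against 11.77, 11.75 and 11.81 without, a 1.63-fold rise (0.71 ± 0.05, adjusted p = 4.56e-05). Atp5g3 read 13.85, 13.81 and 13.84 with Smo2, against 14.05, 14.15 and 14.14 without and was 1.21-fold lower (-0.28 ± 0.05, adjusted p = 0.00374), though it had 0.06 after median centring. Within each array Atp5g2 minus Atp5g3 therefore deviated by 0.48 to 0.51 with Smo2, against -0.56 to -0.44 without, a difference of 0.99 after quantile normalization and 0.88 as deposited. For Atp5g1 minus Atp5g3 these differences were 0.99 and 0.84.

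Promoter windows of these 3 genes are shown because the genes encode 1 protein and moved apart. Those of Ndufb6 and Cox6a1 are shown because a rising and a falling gene can be set side by side. They were chosen after the values were seen. Each is a RefSeq window (GRCm38.p6) of 300 bases, read on the minus strand, on which all 5 genes lie. They are at chr11:96075582-96075881 (Atp5g1), chr15:102670998-102671297 (Atp5g2), chr2:73911277-73911576 (Atp5g3), chr4:40279372-40279671 (Ndufb6) and chr5:115348909-115349208 (Cox6a1). Those of Atp5g2, Ndufb6 and Cox6a1 run from 250 bases before to 50 after the gene start. The annotated spans of Atp5g1 and Atp5g3 start elsewhere, at 96075694 and 73912464. The window of Atp5g1 thus holds more of the gene, and that of Atp5g3 lies wholly inside its gene. Capitals mark matches, on either strand, to the NRF1 motif GCGCATG, the ETS core CCGGAAG bound by factors such as GABPA, or the YY1 core AAGATGG. NRF1 and GABPA are known regulators of nuclear genes for the respiratory chain.
Atp5g1: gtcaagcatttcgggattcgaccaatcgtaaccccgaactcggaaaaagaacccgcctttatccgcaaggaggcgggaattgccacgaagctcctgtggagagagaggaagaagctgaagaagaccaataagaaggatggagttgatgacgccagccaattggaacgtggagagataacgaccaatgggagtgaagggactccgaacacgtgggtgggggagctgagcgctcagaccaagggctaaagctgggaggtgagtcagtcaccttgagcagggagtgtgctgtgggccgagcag
Atp5g2: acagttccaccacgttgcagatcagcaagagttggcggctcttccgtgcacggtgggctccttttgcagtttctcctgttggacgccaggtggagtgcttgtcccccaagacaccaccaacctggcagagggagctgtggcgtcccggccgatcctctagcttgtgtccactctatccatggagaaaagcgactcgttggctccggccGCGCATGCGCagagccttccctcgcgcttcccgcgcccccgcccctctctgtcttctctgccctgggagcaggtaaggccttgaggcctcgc
Atp5g3: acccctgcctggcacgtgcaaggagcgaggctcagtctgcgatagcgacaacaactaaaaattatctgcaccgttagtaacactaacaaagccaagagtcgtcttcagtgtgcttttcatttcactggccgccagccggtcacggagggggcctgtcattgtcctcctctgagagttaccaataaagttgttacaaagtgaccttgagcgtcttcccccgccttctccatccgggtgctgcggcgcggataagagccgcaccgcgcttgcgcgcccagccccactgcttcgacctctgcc
Ndufb6: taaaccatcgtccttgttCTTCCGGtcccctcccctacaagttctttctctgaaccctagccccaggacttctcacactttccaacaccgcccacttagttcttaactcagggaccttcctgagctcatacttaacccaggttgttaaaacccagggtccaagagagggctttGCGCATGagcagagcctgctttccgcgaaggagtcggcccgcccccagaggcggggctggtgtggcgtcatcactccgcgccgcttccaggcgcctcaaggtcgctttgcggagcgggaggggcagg
Cox6a1: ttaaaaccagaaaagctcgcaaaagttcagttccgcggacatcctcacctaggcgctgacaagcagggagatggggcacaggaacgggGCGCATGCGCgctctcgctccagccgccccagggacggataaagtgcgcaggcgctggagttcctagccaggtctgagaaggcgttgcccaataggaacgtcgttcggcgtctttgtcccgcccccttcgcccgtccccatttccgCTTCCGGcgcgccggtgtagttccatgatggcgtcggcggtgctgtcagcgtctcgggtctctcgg

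Atp5g2 and Cox6a1 hold a palindrome in which the NRF1 motif is read on both strands, overlapping itself, and Cox6a1 also holds an ETS core. Ndufb6 holds 1 NRF1 motif and 1 ETS core, and the windows of Atp5g1 and Atp5g3 hold none of the 3 motifs. These windows are not set around the annotated gene start as the others are, so the absence is not a like comparison. Of 74 members with a window in the table, 14 (18.9%) held the NRF1 motif, against 8.46% of 8785 tested genes with a window and 4.41% of all 27025 genes. The ETS core was in 19 members (25.7%), against 20.9% and 9.93%, and the YY1 core in 11 (14.9%), against 8.57% and 7.28%. By call with Smo2, the NRF1 motif or the ETS core was found in 12 of 27 members that rose, 2 of 9 that fell and 13 of 33 that were not called. A match is a run of letters and not a binding site.

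The remaining ATP synthase genes changed less. The central stalk subunits Atp5d (0.30, adjusted p = 0.00673) and Atp5e (0.29, adjusted p = 0.00247) rose, as did Atp5k (0.20) and Atp5l (0.22), which lie where dimers meet, each lost in 4 of the 6 fits without 1 array (Atp5k without control replicate 1 or 2 or Smo2 replicate 2 or 3, Atp5l without control replicate 2 or 3 or Smo2 replicate 1 or 3). The catalytic core showed no call, with 13.57, 13.47 and 13.53 with Smo2, against 13.40, 13.38 and 13.39 without for Atp5a1, the alpha subunit gene (0.13, adjusted p = 0.0541) and -0.05 (95% interval -0.21 to 0.11) for the beta subunit gene Atp5b. Atp5pb, of the peripheral stalk, differed by -0.14 (adjusted p = 0.0489), a call lost without any array but control replicate 3. Probe sets of some uncalled members disagreed, those of Ndufs4 ranging from -0.67 to 0.13, of Atp5j2 from -0.58 to 0.06 and of Ndufb2 from -0.87 to 0.03, so these genes have no settled direction. Among called members, those of Atp5pb (-0.14 to 0.11) and Ndufab1 (-0.04 to 0.70) also differed in sign, as did those of Sdha.

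**Figure D3:**
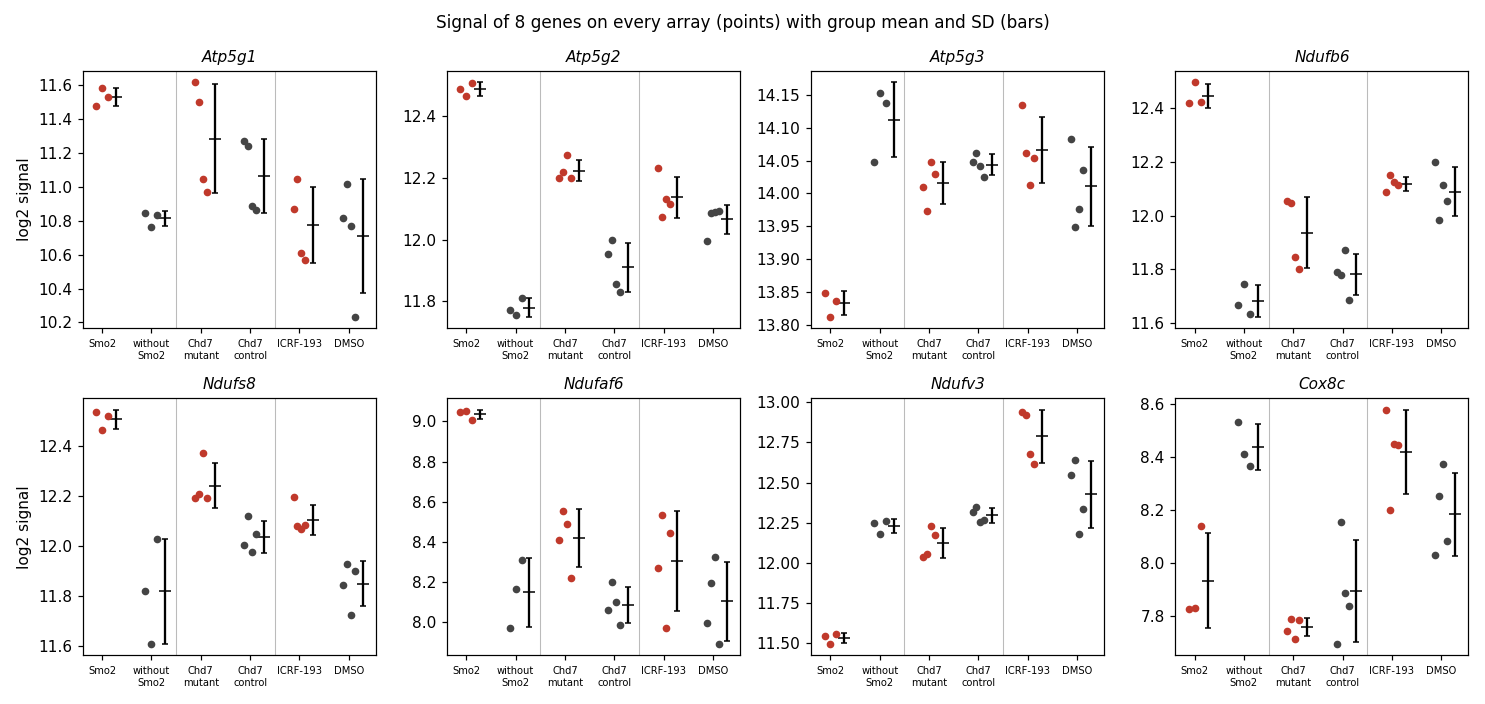
Log2 signal (vertical axes, which differ between panels and do not start at 0) of 8 members on every array, with group mean and SD (n = 3 or 4) beside the points; red points are Smo2, Chd7 mutant and ICRF-193 arrays, dark points their controls. Atp5g2, at 12.46 to 12.51 with Smo2 and 12.20 to 12.27 in mutant cells, lies above its controls in both comparisons, while Ndufv3 is at 11.50 to 11.56 with Smo2 and at 12.62 to 12.94 with ICRF-193.

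In Chd7 mutant cells few members changed. Of 82, 3 rose (3.66%) and 0 fell, against 5.07% of all genes called higher and 3.82% lower. At an unadjusted p under 0.05 limma gave 19 higher and 3 lower (23.2% and 3.66%), against 13.9% and 12.2% of all genes, and the methods' t-test with Benjamini-Hochberg adjustment gave 9 and 1, against 4.03% and 3.6% of all genes. The changes were small on the whole, with 63 above 0 and 19 below, a median of 0.10 (0.01 when arrays were centred on their medians, and 0.00 over all genes), and 79 of the 95% intervals (96.3%) lying within 0.5 of 0 on the log2 scale, against 67.3% of all genes. All 4 mutant arrays lay above all 4 control arrays for 15 members and below them for 3, and over all genes for 10.4% and 9.19%.

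Atp5g2 was the clearest. It read 12.20, 12.22, 12.27 and 12.20 in mutant cells, against 11.95, 12.00, 11.86 and 11.83 in control cells, a 1.24-fold rise (log2 difference 0.31 ± 0.06, SE, adjusted p = 0.0163). With replicate numbers blocked it was still called (adjusted p = 0.032), but not after median centring (0.22, adjusted p = 0.2), nor when its dim probe sets were averaged in (0.10). The other c subunit genes were not called. Atp5g1 read 11.62, 11.50, 11.05 and 10.97 in mutant cells, against 11.27, 11.24, 10.89 and 10.86 in control cells, higher within each replicate number (0.22, adjusted p = 0.467, and 0.0837 with the block). Its first 2 and last 2 replicates lay apart in both groups, and with these sets as a block it was called (adjusted p = 0.0329). Atp5g3 differed by -0.03 (95% interval -0.14 to 0.08). Within each array Atp5g2 minus Atp5g3 deviated by 0.13 to 0.21 in mutant cells and by -0.23 to -0.10 in control cells.

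Ndufa12, the complex I subunit named above, read 13.23, 13.23, 13.12 and 13.06 in mutant cells, against 12.95, 12.94, 12.90 and 12.91 in control cells (0.23, adjusted p = 0.0449, and 0.0511 with the block). Ndufaf1, an early assembly factor, read 9.50, 9.59, 9.54 and 9.62 in mutant cells, against 9.32, 9.32, 9.38 and 9.22 in control cells (0.25, adjusted p = 0.0364, and 0.0642 with the block). Neither was called after median centring, nor when probe sets were averaged (adjusted p = 0.152 for Ndufa12 and 0.055 for Ndufaf1). With the values as deposited the call of Ndufa12 was lost as well (adjusted p = 0.0833). Tested as single probe sets, 1 of the 3 bright ones of Ndufa12 was called higher, and they ranged from 0.20 to 0.28. The block instead called Ndufaf6, which read 8.41, 8.55, 8.49 and 8.22 in mutant cells, against 8.06, 8.20, 8.10 and 7.98 in control cells (0.33, adjusted p = 0.0509, and 0.0217 with the block), and Uqcr10 of complex III (0.24, adjusted p = 0.103, and 0.0475 with the block), so that 3 members were called in either fit, against 7.95% of all genes called higher and 5.15% lower with the block. The groups did not overlap for any of these genes. The 3 bright probe sets of Uqcr10 ranged from -0.07 to 0.24, and none was called when tested singly.

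Leaving out arrays 1 at a time mattered here. The 3 calls became 0 without control replicate 3 and 1 without any other array but mutant replicate 4, without which Ndufaf1 was lost and another gained, while Atp5g2 was lost only without control replicate 3. By complex, the medians were 0.10 for complex I, 0.09 for its assembly factors and 0.09 for complex II. They were 0.08 for complex III, 0.02 for complex IV and 0.12 for ATP synthase. Cox5a of complex IV read 13.67, 13.65, 13.65 and 13.66 in mutant cells, against 13.80, 13.72, 13.82 and 13.77 in control cells, below them on all 4 arrays (-0.12, adjusted p = 0.181). Cox7a2l read 12.02, 12.13, 12.10 and 12.15 in mutant cells, against 11.87, 11.88, 11.96 and 11.85 in control cells (0.21, adjusted p = 0.0533, and 0.0244 with the sets as a block). Sdha lay above its controls on all 4 arrays (0.19, adjusted p = 0.0741, and 0.0392 with the sets). Its 3 bright probe sets ranged from -0.32 to 0.19, and none was called. With the replicate sets as a block 10 members were called higher, against 12.6% of all genes.

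The muscle isoforms of complex IV were dim and outside the main test. Cox6a2, used in heart and skeletal muscle in place of Cox6a1, read 7.60, 7.44, 7.0 and 7.17 in mutant cells, against 6.60, 6.05, 6.27 and 6.56 in control cells, a difference of 0.93 (adjusted p = 0.0357 when genes were not filtered). Cox8b, another muscle form, read 5.75, 6.16, 5.30 and 4.00, the floor, in mutant cells, against 4.00, 4.00, 4.41 and 4.97 in control cells (0.96, adjusted p = 0.355). Of 15 striated muscle markers 3 were measured and all 3 rose, namely Actc1 (2.49), Mylpf (2.64) and Acta1 (1.81), with a summed signal over the markers on the array of 2471 to 4362 in mutant cells and 722 to 872 in control cells. With Smo2 that sum was 2019 to 2209, against 667 to 743 without, and Cox6a2 differed by 0.36 (adjusted p = 0.358 without the filter). All 3 measured Y-linked genes were lower in mutant cells, summing to 73.8 to 439, against 1246 to 1769 in control cells, and of 11 astrocyte and 8 oligodendrocyte lineage markers measured 1 each was called higher, or 7 each with the replicate block. Of 19 progenitor markers 3 were called higher, or 13 with the block, with a median of 0.48 and a summed signal of 16009 to 26595 in mutant cells, against 12393 to 16572 in control cells. Of 9 granule lineage markers 2 were lower, and of 6 fibroblast and pericyte markers 2 were higher, or 5 with the block. No microglia marker of 6 was called, or 3 lower with the block. The part of these markers in the members' changes was not tested.

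**Figure D4:**
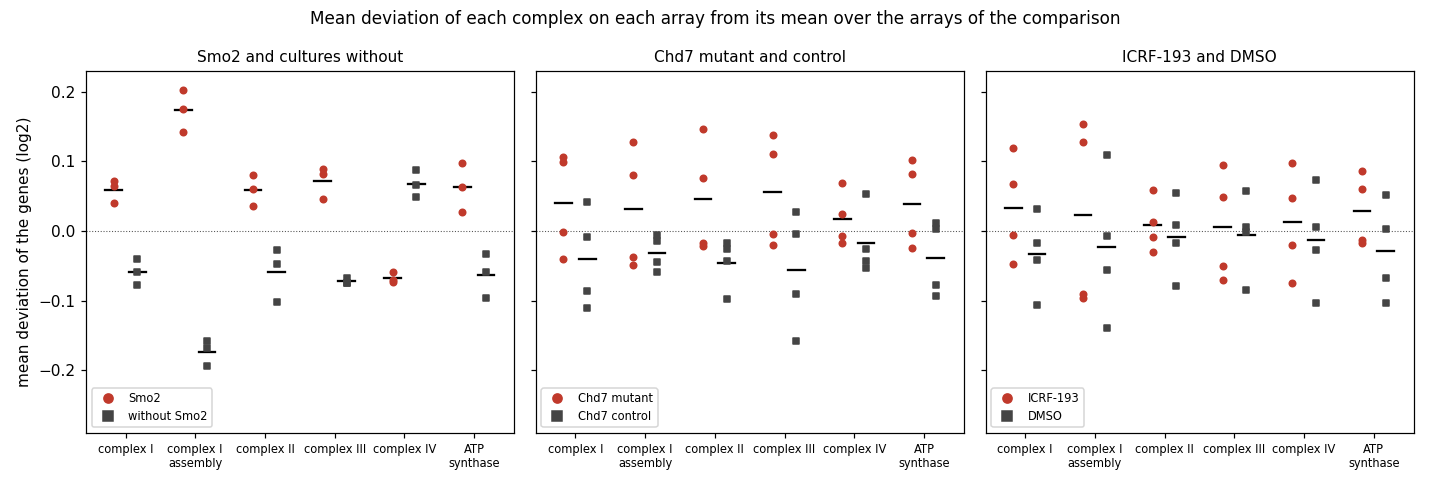
Mean deviation of the members of each complex on each array (vertical axis, log2, from each gene's mean over the arrays of the comparison); red circles are Smo2, Chd7 mutant and ICRF-193 arrays, dark squares their controls, and bars are group means. With Smo2 the groups separate in every complex, complex IV from -0.07 to -0.06 with Smo2 and from 0.05 to 0.09 without (its median change turned to 0.18 when arrays were centred on their medians), whereas mutant and control arrays overlap in all 6 groups of genes, as do those with ICRF-193 and DMSO. Equal replicate numbers are not called pairs in the labels. Within them the mutant array lies above its control 4 times of 4 for all 6 groups of genes. The ICRF-193 array lies above DMSO in 2 to 4 of 4. The mean over all genes is also higher on every mutant array than on its same-numbered control. For replicate 3 it is 0.020 against -0.033. That gap is wider than for complex I assembly factors (-0.037 against -0.045) and complex IV (-0.017 against -0.043), and narrower than for the other groups. For replicate 4 the mean over all genes is 0.015 against -0.020. This is a wider gap than for complex II (-0.018 against -0.026) and complex I assembly factors (-0.048 against -0.058), and narrower than for the other groups.

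With ICRF-193 no member was called, higher or lower, against 3.14% of all genes higher and 3.46% lower. At an unadjusted p under 0.05 limma gave 4 higher and 2 lower (4.88% and 2.44%), against 10.2% and 9.15% of all genes, and the methods' t-test 8 and 2, against 10.3% and 8.77%, or 0 and 0 after adjustment. The median change was 0.05, against 0.01 over all genes, and -0.01 after median centring. Within replicate numbers the mean over all members was higher with ICRF-193 for 4 of 4 numbers, by 0.02 to 0.11. The mean over all genes was higher for replicates 1 and 4 and lower for 2 and 3. Of progenitor markers 2 of 19 were higher, of granule lineage markers 2 of 9 lower, and of oligodendrocyte lineage markers 1 of 8 and of interneuron markers 1 of 6 lower, and their part in the members' values was not tested. Of the 95% intervals 76 lay within 0.5 of 0, as did 63.3% of those of all genes. All 4 ICRF-193 arrays lay above all 4 DMSO arrays for 8 members and below them for 1, and over all genes for 7.63% and 6.64%.

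The largest changes were in complex I. Ndufv3 read 12.94, 12.92, 12.68 and 12.62 with ICRF-193, against 12.55, 12.64, 12.18 and 12.33 with DMSO (0.36, adjusted p = 0.146, and 0.0352 with the replicate block). Ndufaf8 read 9.52, 9.47, 9.20 and 9.29 with ICRF-193, against 9.71, 9.88, 9.64 and 9.59 with DMSO (-0.34, adjusted p = 0.0979, and 0.0475 with the block), the 1 member lower on all 4 arrays. Within replicate numbers both moved the same way 4 times of 4. These 2 were the only calls with the block, against 4.28% of all genes higher and 4.51% lower. Ndufaf7 read 8.84, 9.29, 9.26 and 8.65 with ICRF-193, against 8.62, 8.79, 8.78 and 8.62 with DMSO (0.31, adjusted p = 0.31). Ndufa12 read 13.38, 13.29, 13.30 and 13.18 with ICRF-193, against 13.09, 13.12, 12.96 and 13.01 with DMSO, without overlap (0.24, adjusted p = 0.0984). Tested as single probe sets, 1 of its 3 was called higher (0.34, adjusted p = 0.0298), as was 1 of 3 of the complex I subunit gene Ndufc2 (0.32, adjusted p = 0.0465).

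The c subunit genes and the common complex IV isoforms differed little with ICRF-193. Atp5g2 had 12.23, 12.07, 12.13 and 12.12 with ICRF-193 and 12.00, 12.09, 12.09 and 12.09 with DMSO (0.07, 95% interval -0.08 to 0.22). Atp5g1 differed by 0.06 (-0.34 to 0.47), a gene whose DMSO arrays ran from 10.23 to 11.02, and Atp5g3 by 0.05 (-0.10 to 0.20). Cox4i1 differed by -0.04, Cox6a1 by 0.01 and Cox8a by 0.001, while Cox5a read 13.96, 13.94, 14.00 and 13.99 with ICRF-193, against 13.87, 13.87, 13.88 and 13.93 with DMSO, above on all 4 arrays (0.08, adjusted p = 0.51).

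Whether the comparisons differed from each other was tested in 1 limma fit of all 22 arrays, which share no controls between comparisons. The Chd7 effect minus the ICRF-193 effect was called positive for 3 of 82 members and negative for 2, against 5.07% and 3.99% of all genes. The Chd7 effect minus the Smo2 effect gave 7 and 9 (27.2% and 20.4% of all genes), and the ICRF-193 effect minus the Smo2 effect 9 and 13 (27.8% and 22.8%).

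A few genes differed in every pair or in most. Ndufv3 differed in all 3 pairs, with 0.36 under ICRF-193, -0.17 in mutant cells and -0.70 with Smo2 (adjusted p = 0.00996 between mutant and ICRF-193, 0.00377 between mutant and Smo2, 3.53e-06 between ICRF-193 and Smo2). Ndufaf8 ran the other way, with -0.34 under ICRF-193, 0.15 in mutant cells and 0.72 with Smo2 (adjusted p = 0.0148, 0.00156 and 2.52e-06 for the same pairs). Atp5g2 was highest with Smo2, intermediate in mutant cells and lowest with ICRF-193, with each pair of effects past the threshold (adjusted p = 0.0344, 0.000287 and 1.37e-06). In complex IV, 3 of 12 members stood higher in the mutant effect than in the Smo2 effect, Cox4i1, Cox6a1 and Cox8a, and 1 lower, Cox5a. These shares are 25% and 8.33%, against 27.2% and 20.4% of all genes. All differences between comparisons were fitted after quantile normalization only. After median centring the Smo2 effects of Cox4i1, Cox6a1 and Cox8a were 0.09, -0.0044 and -0.0097. Across the 82 members the changes correlated with r = 0.49 between mutant and Smo2, 0.02 between mutant and ICRF-193 and 0.03 between ICRF-193 and Smo2, against 0.33, 0.21 and 0.23 over all genes, a description across genes that share arrays.

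Other genes of mitochondrial energy metabolism were followed as lists, to be read against the 29.7% of all genes called higher and 39% lower with Smo2. Of 76 mitochondrial ribosomal proteins, which translate the mitochondrial transcripts, 57 rose (75%) and 3 fell (median 0.38), with Mrpl13 at 12.01 to 12.19 with Smo2 and 10.79 to 10.86 without. In mutant cells 5 rose and 1 fell, and with ICRF-193 none was called. Of 15 measured regulators of mitochondrial transcription and biogenesis 10 rose (66.7%) and 3 fell with Smo2. The coactivator Ppargc1a (-1.46) and the nuclear receptor Esrrg (-1.50) fell. The related coactivator Pprc1 (1.28), the GABP subunits Gabpa (0.53) and Gabpb1 (0.64), Tfam (0.63) and Tfb1m (1.22) rose. Esrrg also fell with ICRF-193 (-0.71, adjusted p = 0.000501), and Tfb1m rose in mutant cells (0.56, adjusted p = 0.0287).

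Of 17 enzymes of the citric acid cycle, which feeds complexes I and II, 7 rose (41.2%) and 2 fell with Smo2. Idh2, the NADP-dependent isocitrate dehydrogenase, read 11.48 to 11.59 with Smo2, against 9.41 to 9.47 without (2.10), and Suclg2, a subunit of the GTP-forming succinate-CoA ligase, read 9.23 to 9.35 with Smo2, against 7.12 to 7.64 without (1.95). Both also rose in mutant cells, Idh2 by 0.46 and Suclg2 by 0.70, under all 4 scalings. Of 33 other assembly factors 10 rose (30.3%, close to all genes) and 6 fell (18.2%) with Smo2, including the copper chaperones of complex IV Cox17 (0.97) and Sco2 (-0.82). Of 8 electron carriers and subunits outside the rule 4 rose (50%) and 1 fell, with Etfa at 0.87, Dhodh at 0.67 and cytochrome c, Cycs, at 0.66. Of 9 carriers 1 rose (11.1%) and 3 fell (33.3%; median -0.08, but 0.18 after median centring), the adenine nucleotide translocator Slc25a5 (0.80) against the mitochondrial creatine kinase Ckmt1 (-1.27) and Slc25a12 (-0.62). The 1 probe set for a subunit encoded in mitochondrial DNA, that of ND5, read 12.89 to 12.97 with Smo2 and 13.55 to 13.73 without (-0.69).

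The members are short genes, with a median span of 7444.5 bp against 25033 bp for all tested genes, and 2 of 82 exceed 100 kb. Across members, the log10 of span correlated weakly with change (r = 0.17 with Smo2, -0.05 in mutant cells and 0.11 with ICRF-193, descriptions in which genes are not independent points).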

How the data were processed

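Affymetrix arrays of 22 samples were used. Per the labels and the file, the authors deposited linear signal intensities of 45101 probe sets. The sources used here do not name the software that summarised them. With 2% of probe sets trimmed from either end, every array averaged 500, the mark of a global scaling. Array medians (log2) ranged from 6.33 to 6.81, so signals were floored at 16, taken to log2 and quantile normalized. No count depth exists for arrays, and their number limits the precision.

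Members and gene lists were chosen with earlier results of these data known. Among probe sets with 1 symbol the brightest stood for its gene (34958 probe sets; 932 with several and 9211 with none were left out, 10 of the several matching the member rule). The 10772 genes whose mean reached 6.44, the median probe set, were tested. All 90 members were found by symbol in RefSeq (GRCm38.p6). No 2 arrays were identical (0 of 231 pairs).

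Each comparison was fitted with limma 3.58.1 (R 4.3.3) on its own 2 groups, two-sided. P-values were adjusted by Benjamini-Hochberg across every tested gene, and an adjusted p under 0.05 was a call. The code was tested on simulated data. Named were up to 6 called members with the largest rise and fall, or 3 with the largest change where fewer than 3 were called, fixed isoform groups and core subunits, and up to 3 called genes per list. Other genes named were chosen after their values were seen, as were counts over 4 scalings and within-array differences. In the Chd7 and ICRF-193 comparisons, arrays sharing a replicate number departed from their group means together, with correlations of 0.39 to 0.42 (Chd7) and 0.28 to 0.41 (ICRF-193), so blocked values stand beside calls that they change. Replicates 1 and 2, and 3 and 4, also correlated with each other (0.38 to 0.44 and 0.30 to 0.35). That is about as close as equal numbers, which the labels do not call pairs. Figures were drawn with matplotlib 3.10.9.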

Additional observations from a re-analysis of the deposited data

Results flagged for a closer look

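Among 32 named genes in 128 groups of 4 arrays, 4 groups held an array whose distance to its nearest neighbour took up most of the group's range, where chance gives about 5%. Atp5g2 read 12.00 on DMSO replicate 1, against 12.09 on each of the others. Cox5a read 13.93 on DMSO replicate 4, against 13.87 to 13.88. Cox6a1 read 14.60 on ICRF-193 replicate 2, against 14.42 to 14.43. Cox4i1 read 13.90 on Chd7 control replicate 2, against 13.82 to 13.83. None of these groups belongs to a comparison in which the gene was called.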

How the results depend on the processing

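For Smo2, centring each array on its median gave 64 members higher, 3 lower and a median of 0.32, the values as deposited 40 higher, 7 lower and a median of 0.14, and averaging a gene's probe sets a median of 0.0747. At an adjusted p under 0.01, 7 members were lower. Under median centring the sign turned for Atp5g3 (0.0561), Cox4i1 (0.091), Cox6b1 (0.22), Ndufa4 (0.14), Ndufs1 (0.19) and Atp5b (0.27). These are only the named members called in either fit, and others turned too. All 8 members of complex III were then called higher, against 7 above 0 after quantile normalization. The median of all genes was then 0.05, against -0.09 after quantile normalization. Leaving out 1 array at a time gave 24 to 28 higher, 7 to 9 lower (7 without control replicate 1 and without Smo2 replicate 3) and medians of 0.0613 to 0.0919. Same-numbered Smo2 arrays correlated by -0.01 to 0.03 and share only a number; with the replicate block 29 were higher and 9 lower.

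For the Chd7 mutant, members higher numbered 0 with median centring (median 0.0064), 5 without the filter, 1 with averaged probe sets, 5 with all 22 arrays in 1 fit, 7 with a trended robust variance, 0 at an adjusted p under 0.01, 10 with replicate sets as a block, 0 within replicates 1 and 2 and 1 within replicates 3 and 4; the methods' t-test gave 22 higher and 3 lower unadjusted and 9 and 1 adjusted. Leaving out 1 array gave 0 to 3 higher, 0 lower and medians of 0.06 to 0.12. The replicate block gave 3 higher. For ICRF-193, 0 and 0 became 3 higher and 1 lower with all arrays in 1 fit, 2 higher with the robust variance, 8 and 2 with the unadjusted t-test, 1 and 1 with the replicate block and 3 and 1 with sets as a block; leaving out 1 array gave 0 and 0, with medians of 0.02 to 0.07. The cause of these moves was not tested. Signals near background limit the dim isoforms, and the number of arrays limits the precision throughout.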
